A study of Mus musculus with 20 samples.

Results

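The 10 genes described here encode enzymes of glycolysis, the chain of cytosolic reactions that splits glucose into pyruvate. They are *Hk1*, *Hk2*, *Gpi1*, *Pfkl*, *Pfkm*, *Pfkp*, *Aldoa*, *Tpi1*, *Pgk1* and *Pkm*, and each was found by its symbol as a single row among the 25869 genes of the deposited table. Hexokinases (*Hk1*, *Hk2*) phosphorylate glucose, glucose-6-phosphate isomerase (*Gpi1*) converts the product to fructose-6-phosphate, and the 3 phosphofructokinases, known as the liver (*Pfkl*), muscle (*Pfkm*) and platelet (*Pfkp*) forms, catalyse the committed step. Aldolase A (*Aldoa*) and triosephosphate isomerase (*Tpi1*) form and interconvert the triose phosphates, and phosphoglycerate kinase (*Pgk1*) and pyruvate kinase (*Pkm*) each yield ATP. Proliferating cells, tumour cells among them, often take up much glucose, and several of these genes are known targets of MYC and of HIF1A. Where a step has several isozymes, tissues differ in which they use. HK1 is the form of most tissues, and HK2 is the form of insulin-sensitive muscle and of many tumours.

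RNA was sequenced from 20 mouse libraries. The 10 MEF (mouse embryonic fibroblast) libraries were 2 from WT cells, 2 from cells with the dCas9a-SAM cassette and no sgRNA, 2 with the cassette and a non-targeting sgRNA (sgNT), and 4 with the cassette and sgBcl-2, an sgRNA that directs the dCas9-based activator to the promoter of Bcl-2. The cassette sits in the Rosa26 locus, is heterozygous (KI/+) according to the study's methods, and is shared by all groups other than the WT MEFs and, by their labels, preB-ALL. The labels number 2 MEF lines in each MEF group, so the 4 sgBcl-2 libraries are 2 from each line. The 6 lymphoma cell lines carry *Eµ-Myc*, a transgene in which the immunoglobulin heavy chain enhancer drives *Myc* in B cells, together with dCas9a-SAM KI/+ and sgBcl-2. They were grown from tumours of lethally irradiated mice that had received transduced foetal liver progenitors, and each is 1 line of 1 mouse. They are named here by the numbers that open their titles, lymphoma lines 14 to 17 being labelled IgM-positive and lines 18 and 19 IgM-negative. The 2 primary tumour libraries, titled 20 and 21, have the same genotype and are IgM-positive by label. They came from the mice of lines 14 and 15, and title and description give opposite mice for each. The 2 preB-ALL libraries came from preB acute lymphoblastic leukaemia cells with the BCR-ABL1 (p190) fusion, titled CreER-LSL-Erg and Rag-Cre-Erg. The labels give no age for any group. Where nothing says that the libraries of a group came from separate cultures, p-values measure only the spread between these libraries, which may be technical.

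Values are CPM, reads of a gene relative to the reads on all listed genes of its library, and depth was 12474885 to 26678417 reads per library, lowest in preB-ALL. *Bcl2*, the gene activated by design, had 46.8 to 71.8 CPM in the sgBcl-2 MEFs and 11.2 to 17.9 CPM in the other 6 MEF libraries. All 12 fibroblast markers were detected in each MEF library, and 10 B cell markers summed to 1226 CPM or more in each line, tumour and preB-ALL library and to at most 25.9 CPM in a MEF library. The preB-ALL libraries stood apart in 2 ways. Their 15 mitochondrial genes are listed at 0, against 5.3% to 7.18% of the reads in the lines, and their 12 fibroblast markers summed to 2574 and 5996 CPM, against 3.04 to 39.2 CPM in the lines. They were also grown in another medium with IL7, extracted with another kit and sequenced in another run, so tumour type and batch cannot be told apart. WT MEF 2 stood apart from the other MEF libraries, with 217 CPM over 6 myeloid markers against 6.47 CPM in WT MEF 1, the highest sums of the MEFs over 4 endothelial markers (50.3 against 9.87 CPM) and 5 muscle markers (245 against 100.1 CPM), and the lowest over the 12 fibroblast markers (8965 against 17572 CPM).

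In the RefSeq annotation of GRCm38.p6, the hexokinase genes are *Hk1* (Entrez gene 15275) at chr10:62268855-62379920 and *Hk2* (15277) at chr6:82725025-82774454, both on the minus strand. The genes that act next are *Gpi1* (14751) at chr7:34201327-34230336, *Pfkl* (18641) at chr10:77986947-78009807 and *Pfkp* (56421) at chr13:6579874-6649060, all on the minus strand, and *Pfkm* (18642) at chr15:98092589-98132447 on the plus strand. *Aldoa* (11674) lies at chr7:126795234-126800994 and *Tpi1* (21991) at chr6:124810586-124814158 on the minus strand, and *Pgk1* (18655) at chrX:106187100-106203699 and *Pkm* (18746) at chr9:59656576-59679372 on the plus strand.

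The table of RefSeq promoters, 250 bases before to 50 after a start site in GRCm38.p6, held 17 windows for the 10 genes, and all 10 genes matched. The letters ACGTG, the core of the site that HIF1A binds, were searched on both strands together with CACGTG, the E-box bound by MYC, which contains ACGTG, and GGGCGG, a GC box. ACGTG was found in 8 of the 17 windows, of 6 genes, and in 19.6% of all 32851 promoters of the table. CACGTG was found in 1 window, of *Pfkm*, and in 7.15% of all promoters, and GGGCGG in 9 windows, of 8 genes, and in 35.7% of all promoters. These are matches of letters only, and windows of 1 gene can overlap. The upstream part of 3 windows is shown because the largest differences below are in these genes, with ACGTG and its reverse complement in capitals, each written 5′ to 3′ on the strand of its gene. The *Hk2* sequence, at chr6:82774455-82774704 (minus strand), and the *Pgk1* sequence, at chrX:106186850-106187099 (plus strand), each held 2 matches. The *Hk1* sequence, at chr10:62340422-62340671 (minus strand), is the more GC-rich of 2 *Hk1* windows and held none, and the 2 matches of its window lie after the start. Reads counted per gene do not separate the start sites.
Hk2: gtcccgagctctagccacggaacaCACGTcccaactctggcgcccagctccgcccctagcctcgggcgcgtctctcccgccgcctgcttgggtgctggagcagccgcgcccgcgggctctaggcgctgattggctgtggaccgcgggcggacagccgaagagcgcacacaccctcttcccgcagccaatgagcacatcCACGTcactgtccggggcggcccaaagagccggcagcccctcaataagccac
Pgk1: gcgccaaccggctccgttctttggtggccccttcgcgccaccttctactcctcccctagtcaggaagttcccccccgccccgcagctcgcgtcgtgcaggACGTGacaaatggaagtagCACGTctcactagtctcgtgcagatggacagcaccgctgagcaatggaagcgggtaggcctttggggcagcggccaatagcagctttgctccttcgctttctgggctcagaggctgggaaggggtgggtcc
Hk1: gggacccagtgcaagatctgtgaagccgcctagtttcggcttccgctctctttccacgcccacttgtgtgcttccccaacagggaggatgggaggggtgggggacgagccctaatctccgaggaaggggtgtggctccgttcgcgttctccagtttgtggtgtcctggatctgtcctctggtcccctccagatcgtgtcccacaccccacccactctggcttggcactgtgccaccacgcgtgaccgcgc

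The 10 genes together took a larger part of the RNA in MEFs than in the B cell tumours. They summed to 0.762% to 1.19% of reads in the 10 MEF libraries, to 0.367% to 0.829% in the 6 lymphoma lines, to 0.285% and 0.324% in the tumours and to 0.217% and 0.303% in preB-ALL. Line 16, with the highest sum of the lines (0.829%), lay above the lowest MEF libraries, and every line lay above both tumours and both preB-ALL libraries. In bulk RNA, fewer cells of a type and less RNA per cell cannot be told apart. Per kb of exon, *Pkm* was the most abundant member, with 1806 CPM per kb as the mean of the sgBcl-2 MEFs and 1006 CPM per kb in the lines. *Pfkm* was the least abundant in the sgBcl-2 MEFs (17.7 CPM per kb) and *Hk1* in the lines (7.72 CPM per kb).

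**Figure D1:**
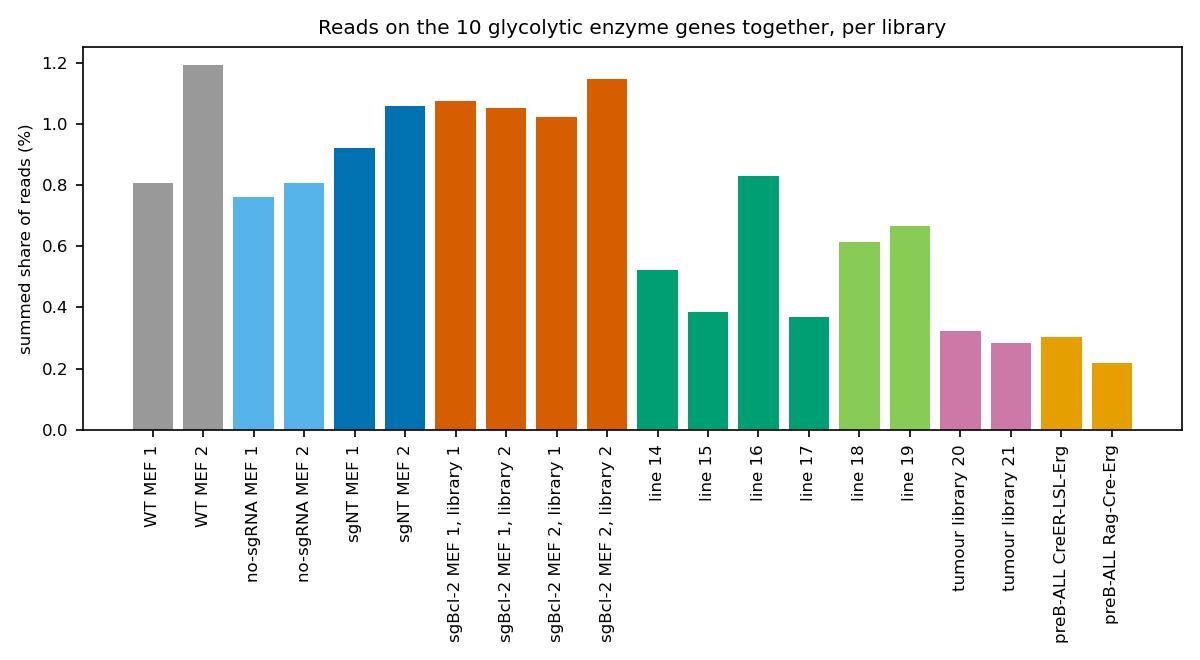
Summed share of reads (%) on the 10 glycolytic enzyme genes in each of the 20 libraries, 1 bar per library, coloured by group. The MEF bars run from 0.762% to 1.19%, and the tumour and preB-ALL bars are the lowest, at 0.217% to 0.324%.

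By mean CPM, the groups ran from the 4 MEF groups through the IgM-negative and IgM-positive lines to the tumours and preB-ALL for 5 of the 10 members (*Pfkl*, *Aldoa*, *Tpi1*, *Pgk1* and *Pkm*), and the other 5 departed from this order. For *Pfkp* the IgM-negative lines came first and for *Gpi1* they came second, for *Hk2* sgNT MEFs lay below both groups of lines, and for *Hk1* preB-ALL lay above both. sgBcl-2 MEFs were highest for *Hk1*, *Hk2*, *Gpi1*, *Pfkl*, *Tpi1* and *Pkm*, and preB-ALL was lowest for *Hk2*, *Gpi1*, *Pfkp*, *Tpi1*, *Pgk1* and *Pkm*. For *Pkm*, the means ran from 4694 CPM in sgBcl-2 MEFs through 4430 (sgNT), 4182 (WT) and 3638 CPM (no sgRNA) to 2889 CPM in the IgM-negative lines, 2478 in the IgM-positive lines, 1355 in the tumours and 999 CPM in preB-ALL. Its neighbours overlapped among the MEF groups and among the lines. The no-sgRNA MEFs lay apart from the IgM-negative lines, which follow them in this order. Line 16, an IgM-positive line, had 3586 CPM and lay above no-sgRNA MEF 1 at 3515 CPM, so MEFs and lines overlapped. The lines lay apart from the tumours. The tumours lay apart from preB-ALL by little, with 1228 CPM in tumour library 21 and 1225 CPM in CreER-LSL-Erg. *Aldoa* ended with the tumours (337 CPM) below preB-ALL (545 CPM), and *Pfkl* likewise, although the *Pfkl* values of these last groups overlapped. For *Pfkm*, the group means ran from 36.9 CPM (no sgRNA) to 61.8 CPM (sgNT), with all neighbours in this order overlapping and the first and last groups apart.

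**Figure D2:**
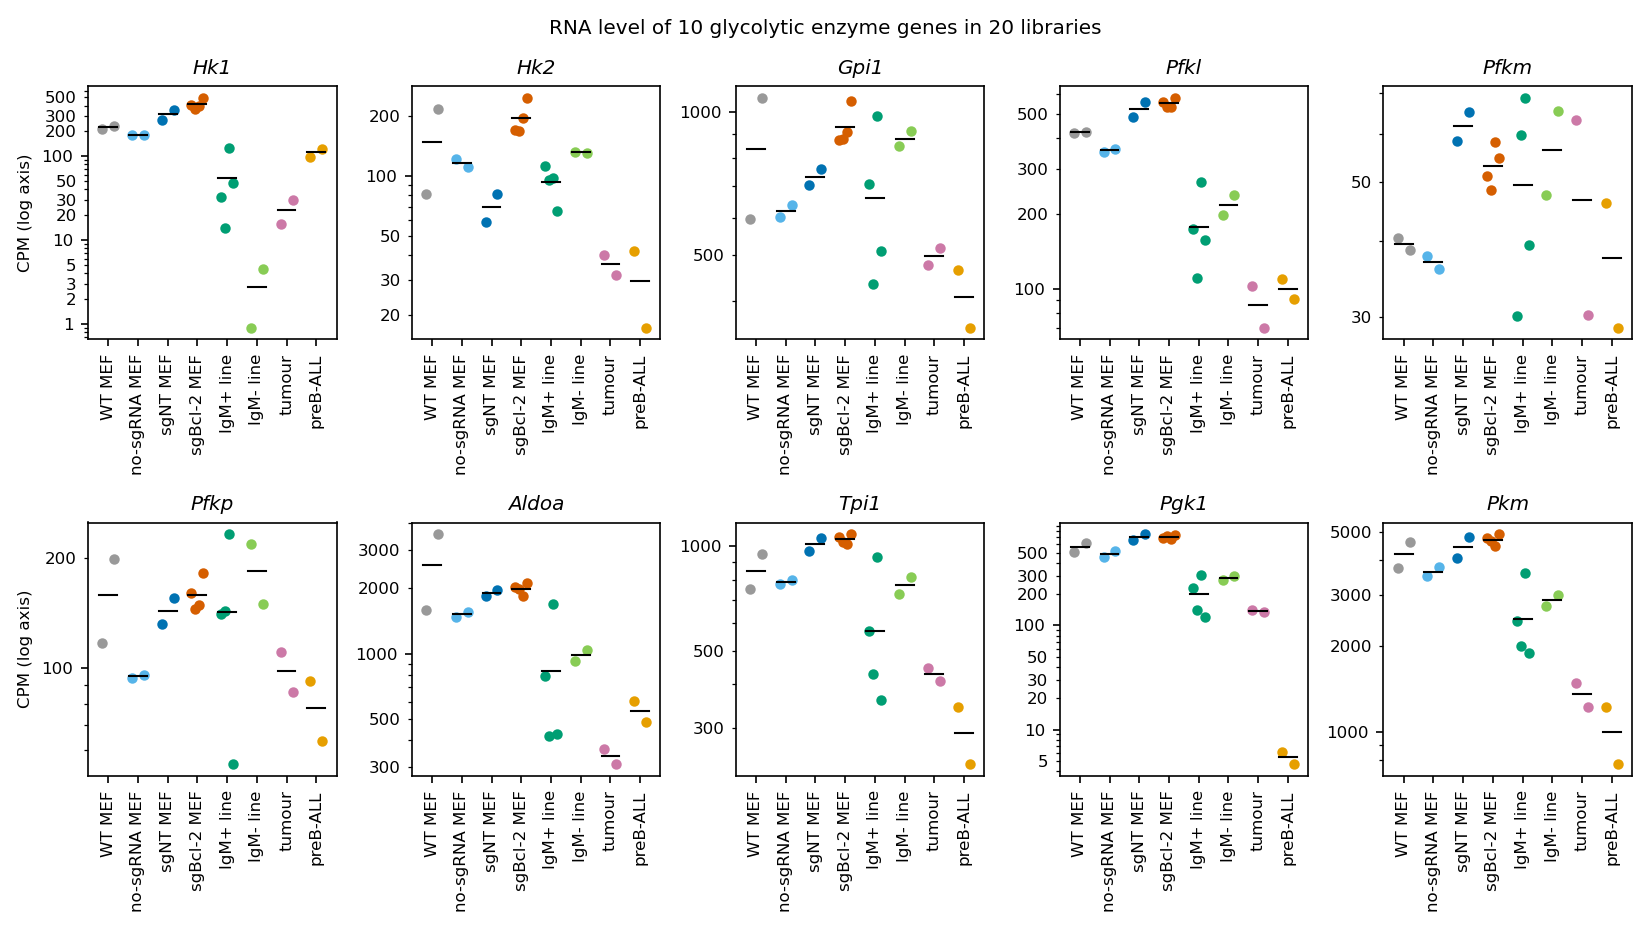
CPM of each gene on a log axis, 1 panel per gene with its own scale, 1 point per library in 8 groups, with a line at the group mean. Most panels fall from the MEF groups on the left to preB-ALL on the right, *Hk1* drops to 0.898 and 4.53 CPM in the IgM-negative lines, and *Pgk1* to 4.65 and 6.15 CPM in preB-ALL.

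The first comparison asks whether the activator with a non-targeting sgRNA alters these genes by itself. Between the 2 sgNT and the 2 WT libraries, 0 of the 10 members passed limma's test (adjusted p under 0.05), and 0% of the 14560 genes tested did. The values of 5 members lay apart (*Hk1*, *Pfkl*, *Pfkm*, *Tpi1* and *Pgk1*, all higher with sgNT), where those of 37.9% of all genes did. At an unadjusted p under 0.05 there was 1 member, *Pfkm*, against 4.05% of all genes, and DESeq2 called 88 genes and 0 members. Changes planted in simulated data with the spread of these 4 libraries were not called by limma either, so the lack of calls does not show that the groups were alike. *Hk2* had 58.9 and 80.8 CPM with sgNT and 80.7 and 217 CPM in WT MEFs, *Aldoa* had 1845 and 1969 CPM with sgNT and 1581 and 3547 CPM in WT, and *Gpi1* had 702 and 761 CPM with sgNT and 597 and 1075 CPM in WT. For each of these genes WT MEF 2 lay above both sgNT libraries, while WT MEF 1 lay below both for *Aldoa* and *Gpi1* and between them for *Hk2*. Without WT MEF 1, 3 members were called (*Hk2*, with a log2 fold change of -1.52, *Pfkm* 0.80 and *Aldoa* -0.76), and without WT MEF 2 only *Pfkm* was, with a log2 fold change of 0.54 (limma adjusted p = 0.0191), so the direction of *Aldoa* and *Gpi1* turned on 1 library. In these fits the lone WT library is assumed to vary like the sgNT pair. The part of the myeloid, endothelial, muscle and fibroblast markers of WT MEF 2 in these values was not tested.

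Within the dCas9a-SAM MEFs, 6 of the 10 members were higher with sgNT than without an sgRNA (*Hk1*, *Pfkl*, *Pfkm*, *Pfkp*, *Tpi1* and *Pgk1*) and 1 was lower (*Hk2*). Over all 14655 genes, 20.3% were called higher and 20.9% lower. *Hk1* had 267 and 359 CPM with sgNT and 178.96 and 180.11 CPM without an sgRNA, a log2 fold change of 0.77 (SE 0.14, limma adjusted p = 0.00376). *Hk2* went the other way, from 111 and 122 CPM without an sgRNA to 58.9 and 80.8 CPM, which is a log2 fold change of -0.77 (SE 0.15, limma adjusted p = 0.00533). The groups did not overlap for either gene. *Pfkm* had 58.3 and 65.3 CPM with sgNT and 35.9 and 37.8 CPM without, a log2 fold change of 0.73 (SE 0.09, limma adjusted p = 0.000718). The other called members rose by log2 fold changes of 0.34 (*Tpi1*) to 0.58 (*Pfkp*). The *Tpi1* call was lost without either no-sgRNA library, without sgNT MEF 2 (log2 fold changes of 0.25 to 0.36, limma adjusted p = 0.0947 to 0.141) and without a filter on low values, and the *Pgk1* call without no-sgRNA MEF 1 (limma adjusted p = 0.0538). *Gpi1*, *Aldoa* and *Pkm* did not pass, with log2 fold changes of 0.22, 0.31 and 0.26, although *Aldoa* did in 6 of 13 alternatives (edgeR, DESeq2 and limma-voom, RLE factors, no scaling factor and without sgNT MEF 1, adjusted p = 0.00351 to 0.0493) and *Gpi1* and *Pkm* in 1 each. The CPM values of all 10 members lay apart between these groups, as did those of 73% of all genes tested. In 1 fit over all 20 libraries, with a single estimate of the spread for all cell types, 0 members were called. Of the 12 fibroblast markers, 7 were higher and 2 lower with sgNT, and the 5 muscle markers summed to 70.2 and 64.8 CPM with sgNT and to 159 and 191 CPM without an sgRNA. The part of these markers in the differences was not tested.

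The next comparison asks what the activation of Bcl-2 brings with it. *Hk2* rose with sgBcl-2. It had 58.9 and 80.8 CPM in the 2 sgNT libraries. The sgBcl-2 libraries of MEF line 1 had 170 and 168 CPM, and those of the second MEF line 195 and 248 CPM. All 4 lay above both sgNT libraries, and the log2 fold change was 1.57 (SE 0.19, limma adjusted p = 0.00362), or 2.97-fold. *Gpi1* rose less, from 702 and 761 CPM with sgNT to 877, 877, 909 and 1055 CPM in the same order of libraries, a log2 fold change of 0.43 (SE 0.11, limma adjusted p = 0.0405). These were 2 of 10 members called higher, where 6.61% of all 14676 genes were, and 0 were called lower, where 4.24% of all genes were. *Hk1* had 267 and 359 CPM with sgNT and 361 to 499 CPM (median 397) with sgBcl-2, so that the ranges did not overlap (as for *Hk2*, *Gpi1* and *Pfkm* and for 44% of all genes), and a log2 fold change of 0.49 that did not pass (limma adjusted p = 0.0871). With the MEF line as a replicate block, *Hk1* passed as well (limma adjusted p = 0.0323). The other 7 members had log2 fold changes of -0.13 (*Pfkm*) to 0.23 (*Pfkp*), with adjusted p-values of 0.234 to 0.571.

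*Hk2* stayed called with any 1 library left out, at log2 fold changes of 1.32 to 1.83, and missed the threshold in the fit over all 20 libraries. *Gpi1* lost its call without either sgBcl-2 library of MEF line 1, the first of MEF line 2 or either sgNT library, without a scaling factor, over all 20 libraries, and with the 2 sgBcl-2 libraries of each MEF line summed to 1 sample (log2 fold change 0.43, limma adjusted p = 0.0554). In the dCas9a-SAM MEFs without an sgRNA, *Hk2* stood at 111 and 122 CPM, between sgNT and sgBcl-2. The WT MEFs, which lack the cassette, differed widely. WT MEF 1 had 80.7 CPM of *Hk2* and 597 CPM of *Gpi1*. WT MEF 2 had 217 CPM of *Hk2*, within the sgBcl-2 range of 168 to 248 CPM. Its 1075 CPM of *Gpi1* lay above every sgBcl-2 library. The comparisons of sgNT with sgBcl-2 and of sgNT with no sgRNA share the 2 sgNT libraries, and the lowest *Hk2* value of the MEFs was that of sgNT MEF 1.

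Other genes of the pathway, from lists that hold no member, were counted in the same comparison. With sgBcl-2, 1 of 11 tested other glycolytic enzymes rose and 0 fell, 3 of 8 genes of glucose and lactate transport rose and 1 fell, 1 of 11 genes that control glycolytic flux rose and 1 fell, and 2 of 7 genes of the pentose phosphate pathway rose. By name, and chosen after their values were seen, those that rose included the glucose transporter *Slc2a1*, from a mean of 273 to 488 CPM (log2 fold change 0.92, limma adjusted p = 0.0201), the lactate transporter *Slc16a1*, from 20.4 to 57.5 CPM (1.54, limma adjusted p = 0.00653), and *Pfkfb3*, whose product makes the activator of phosphofructokinase, from 134 to 310.1 CPM (1.30, limma adjusted p = 0.000905). *Aldoc*, the brain form of aldolase, went from 29.8 to 48.0 CPM (0.79, limma adjusted p = 0.0143). The 2 that fell were the insulin-responsive glucose transporter *Slc2a4*, from 2.24 and 1.61 CPM to between 0.514 and 0.969 CPM (-1.20, limma adjusted p = 0.0345), and *Pdk4*, a kinase that holds back pyruvate dehydrogenase, from 24.9 and 25.9 CPM to between 10.2 and 17.05 CPM (-0.75, limma adjusted p = 0.0306). *Slc2a1* and *Slc16a1* were also high in WT MEF 2, which lacks the cassette, with 1162 and 70.6 CPM. WT MEF 1 had 177 and 20.0 CPM, and the sgBcl-2 libraries 394 to 632 and 38.7 to 73.6 CPM. The median log2 fold change with sgBcl-2 was 0.18 over the members, 0.40 over the transport genes and -0.01 over all genes.

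**Figure D3:**
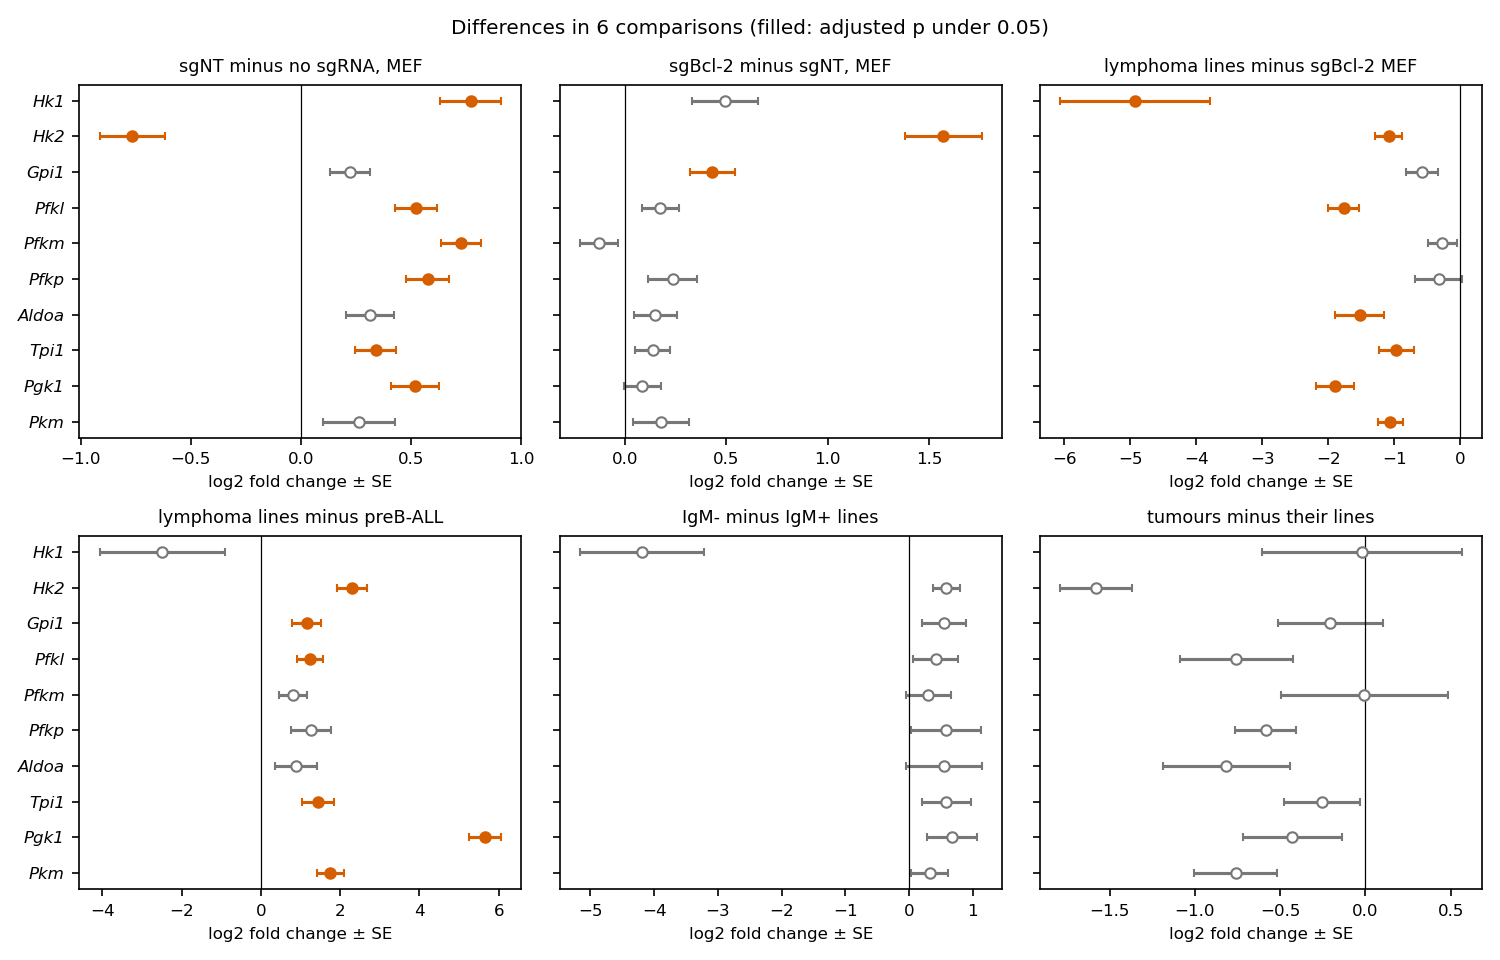
Log2 fold change with its standard error for the 10 genes in 6 comparisons, each panel with its own scale and named as the first group minus the second. Filled points passed limma's test at an adjusted p under 0.05. *Hk2* at 1.57 stands out in the panel of sgBcl-2 against sgNT, and *Hk1* lies far to the left in the panels of the lymphoma lines.

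Against the sgBcl-2 MEFs, which carry the same cassette and sgRNA target, the 6 lymphoma lines had less RNA of 7 of the 10 members (*Hk1*, *Hk2*, *Pfkl*, *Aldoa*, *Tpi1*, *Pgk1* and *Pkm*), and 0 were higher. Of the 14620 genes tested, 45% were called lower in the lines and 36.3% higher, or 81.3% in either direction, and the median log2 fold change over all genes was -0.27. The median over the 10 members was -1.07. *Hk1* differed most, with 361 to 499 CPM in the MEFs and 0.898, 4.53, 13.9, 32.4, 48.2 and 124.7 CPM in lines 18, 19, 15, 14, 17 and 16. Its log2 fold change was -4.93 (SE 1.14, limma adjusted p = 0.00219), which became -5.53 without line 16 and -4.15 without line 18. *Pgk1* had 682 to 737 CPM in the MEFs and 121 to 305 CPM in the lines (log2 fold change -1.90, limma adjusted p = 9.73e-05), and *Pfkl* 533 to 581 and 111 to 267 CPM (log2 fold change -1.77, limma adjusted p = 3.56e-05). The other called members had log2 fold changes of -0.97 (*Tpi1*) to -1.52 (*Aldoa*), and the values of all 7 lay apart between the groups, as did those of 75.3% of all genes. The muscle and platelet phosphofructokinases did not pass. *Pfkm* had 48.6 to 58.2 CPM in the MEFs and 30.1 to 68.9 CPM in the lines, and *Pfkp* 145 to 182 CPM and 54.8 to 233 CPM, so that the lines spanned the MEF values on both sides. *Gpi1* came close to the threshold (log2 fold change -0.58, limma adjusted p = 0.0506) and passed it in 7 of 19 alternatives (DESeq2, limma-voom, RLE factors, over all 20 libraries and without line 16, 18 or 19, adjusted p = 0.00685 to 0.0483).

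Of the other pathway genes, 6 of 11 tested glycolytic enzymes, 6 of 8 transport genes and 7 of 11 control genes were lower in the lines, while 0, 2 and 1 were higher. Among the lower were the enolase *Eno2* (0.0268 against 38.2 CPM), the lactate dehydrogenase subunit *Ldhb* (0.394 against 18.0 CPM), the lactate transporter chaperone *Bsg* (220.1 against 1960 CPM) and *Pdk4* (0.0083 against 14.4 CPM). *Pfkfb4* and *Pfkfb3* were lower as well (3.24 against 21.0 CPM and 112 against 310.1 CPM), as were the transporter genes *Slc16a7* and *Slc2a4*, with little RNA in the MEFs (1.90 and 0.741 CPM), of which *Slc16a7* is listed at 0 in all 6 lines. *Slc16a1* was higher in the lines, with 514 against 57.5 CPM (log2 fold change 3.00, limma adjusted p = 7.26e-08), as were the glucose transporter *Slc2a3* (43.4 against 17.5 CPM) and *Myc* (1756 against 66.03 CPM). In the pentose phosphate pathway, which branches off after hexokinase, 3 of 7 genes were higher (*Rpia*, *Tkt* and *Taldo1*) and 1, *G6pdx*, was lower. The groups are different cell types, with fibroblast markers at 3.04 to 39.2 CPM in sum in the lines.

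Among the lymphoma lines themselves the members spread widely. The highest line exceeded the lowest 1.90-fold for *Pkm* and 1.99-fold for *Hk2*, 2.27- to 2.58-fold for *Gpi1*, *Pfkm*, *Pfkl*, *Pgk1* and *Tpi1*, 4.08-fold for *Aldoa*, 4.25-fold for *Pfkp* and 139-fold for *Hk1*, whereas the 4 sgBcl-2 MEF libraries, from 2 MEF lines, differed at most 1.47-fold, for *Hk2*. The 2 WT MEF libraries lay farther apart, with 80.7 and 217 CPM of *Hk2* and 1581 and 3547 CPM of *Aldoa*. For all 8 members other than the hexokinases, line 16 was highest. Lines 17 and 15 were lowest for 4 and 3 of these 8, and line 14 for *Pfkm*. *Aldoa*, for example, had 416 CPM in line 15, 428 in line 17, 785 in line 14, 923 in line 18, 1036 in line 19 and 1695 in line 16. *Hk2* followed another order, with lines 18 and 19 highest at 132 and 131 CPM and line 16 at 97.7 CPM, below line 14 (112 CPM) as well.

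The study's own contrast sets the lymphoma lines against preB-ALL, a leukaemia of preB cells. Of the 10 members, 6 were higher in the lines (*Hk2*, *Gpi1*, *Pfkl*, *Tpi1*, *Pgk1* and *Pkm*) and 0 lower, where 20.9% of all 13961 genes were called higher and 22.5% lower. The median log2 fold change was 1.25 over the members and -0.07 over all genes. *Hk2* had 66.3, 95.5, 97.7, 112, 131 and 132 CPM in the lines and 17.2 and 41.7 CPM in preB-ALL, with no overlap. The log2 fold change was 2.30 (SE 0.38, limma adjusted p = 0.00179), and it was 2.94 without CreER-LSL-Erg and 1.57 without Rag-Cre-Erg. *Pkm* had 1888 to 3586 CPM (median 2596) in the lines and 773 and 1225 CPM in preB-ALL, which gave a log2 fold change of 1.75 (SE 0.34, limma adjusted p = 0.00401). *Tpi1* (360 to 929 against 236 and 344 CPM) and *Pfkl* (111 to 267 against 91.1 and 109 CPM) lay apart by little, with log2 fold changes of 1.44 and 1.24. With *Pgk1*, these were 5 members whose values did not overlap, where those of 53.4% of all genes did not. For *Gpi1*, line 15 at 434 CPM fell between the preB-ALL values of 351 and 466 CPM.

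*Pgk1* showed the widest gap. It had 121, 142, 227, 273, 299 and 305 CPM in the lines and 4.65 and 6.15 CPM, or 58 and 92 reads, in preB-ALL. Its log2 fold change was 5.66 (SE 0.41, limma adjusted p = 1.65e-05), or 50.4-fold. No other library had less than 121 CPM. Among the other glycolytic enzymes, *Gapdh*, the dehydrogenase before *Pgk1* in the pathway, and *Pgam1*, the mutase after it, were similarly low, with 18.0 and 27.5 CPM and 35.3 and 18.4 CPM in preB-ALL against 242 to 421 and 323 to 1031 CPM in the lines. *Ldha*, the lactate dehydrogenase subunit of fermenting cells, was lower in preB-ALL to a smaller degree, with 666 and 1089 CPM against 1608 to 3569 CPM (log2 fold change 1.90, limma adjusted p = 0.00411). These very low values stand beside the mitochondrial genes at 0 in the same 2 libraries, whose columns in the deposited table also carry another kind of name than the rest, and whether reads were aligned and counted in them as in the others was not tested.

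Of the 10 members, 4 did not pass. *Hk1* had 98.1 and 123 CPM in preB-ALL, above 5 of the 6 lines and below line 16 at 124.7 CPM, and its log2 fold change of -2.49 carried a standard error of 1.58 (limma adjusted p = 0.233) and moved to -3.10 without line 16 and -1.71 without line 18. *Pfkm*, *Pfkp* and *Aldoa* had log2 fold changes of 0.81, 1.26 and 0.89. Line 17, at 54.8 CPM of *Pfkp*, and lines 15 and 17, at 416 and 428 CPM of *Aldoa*, were below both preB-ALL libraries. With a single preB-ALL library, assumed to vary like the lines, 3 members were called without CreER-LSL-Erg (*Hk2*, *Pgk1* and *Pkm*) and 2 without Rag-Cre-Erg (*Hk2* and *Pgk1*). The log2 fold changes of the others of the 6 remained positive in these fits, in the same order, at 1.37 and 0.85 for *Gpi1*, 1.38 and 1.01 for *Pfkl*, 1.73 and 1.08 for *Tpi1* and, without Rag-Cre-Erg, 1.32 for *Pkm*. With the tumours in place of lines 14 and 15, *Pgk1* alone was called. The *Gpi1* call was the least steady of the 6. It was lost in 8 of 18 alternatives, which besides these 3 were those without a scaling factor and without line 14, 16, 18 or 19 (limma adjusted p = 0.0505 to 0.0828). In the fit over all 20 libraries 9 members were called, with *Pfkm* and *Pfkp* also higher in the lines and *Hk1* lower (log2 fold change -2.51, limma adjusted p = 0.000621). The fibroblast markers, at a median of 90.1 and 180 CPM in preB-ALL and at most 0.469 CPM in the lines, moved with tumour type, and 10 of the 10 that were tested were lower in the lines. Their part in these differences was not tested.

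Of the other pathway genes, 4 of 10 tested glycolytic enzymes were higher in the lines (*Gapdh*, *Pgam1* and *Ldha* with the smallest adjusted p) and 2 were lower (*Eno2* and *Ldhb*, both under 4 CPM). Among transport genes, *Slc16a1* was higher (514 against 235 CPM, log2 fold change 1.56, limma adjusted p = 0.00361) and *Slc2a6* lower (0.547 against 6.85 CPM). Among control genes, *Myc* (1756 against 347 CPM), *Pdk1* (239 against 139 CPM) and *Pfkfb3* (112 against 96.1 CPM) were higher, and *Pdk4* and *Pfkfb4* lower. *Pgd* and *Rpe* of the pentose phosphate pathway were higher, and *Rpia* was lower (71.1 against 273 CPM).

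Between the 2 IgM-negative and the 4 IgM-positive lines, 0 of the 10 members passed limma's test, where 0.597% of 12386 genes did. At an unadjusted p under 0.05 there were 2, *Hk1* and *Hk2*, where 11.3% of all genes were. These were also the 2 members whose values did not overlap, where 22.6% of all genes did not. *Hk1* had 0.898 and 4.53 CPM, or 23 and 105 reads, in lines 18 and 19, and 13.9, 32.4, 48.2 and 124.7 CPM in lines 15, 14, 17 and 16. The log2 fold change was -4.19 (SE 0.98, limma adjusted p = 0.200), with -3.10 without line 18 and -5.26 without line 19, where the other is assumed to vary like the IgM-positive lines. *Hk2* had 132 and 131 CPM in the IgM-negative lines and 66.3, 95.5, 97.7 and 112 CPM in the IgM-positive lines, a log2 fold change of 0.58 (limma adjusted p = 0.393). DESeq2 called *Hk1* (log2 fold change -4.31, adjusted p = 0.000127), and so did the fit over all 20 libraries, whereas edgeR's quasi-likelihood test called 0 members. The other 8 members had log2 fold changes of 0.30 to 0.68 and overlapping values. B cell markers summed to 1457 and 1226 CPM in lines 18 and 19 and to 1572 to 2922 CPM in the IgM-positive lines. Endothelial markers summed to 15.5 and 2.89 CPM and to 22.7 to 43.1 CPM. The part of these markers in the differences was not tested.

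The tumours were set against the lines grown from the same mice. Of the 10 members, 0 passed limma's test, where 0.33% of 12719 genes did. At an unadjusted p under 0.05 there were 3 (*Hk2*, *Pfkp* and *Pkm*), where 25.9% of all genes were, and edgeR's quasi-likelihood test called 0 members and DESeq2 2, *Hk2* and *Pkm*. *Hk2* had 40.0 and 31.8 CPM in tumour libraries 20 and 21 and 112 and 95.5 CPM in lines 14 and 15, a log2 fold change of -1.58 (SE 0.21, limma adjusted p = 0.0659). *Pkm* had 1483 and 1228 CPM in the tumours and 2437 and 2000.3 CPM in lines 14 and 15, a log2 fold change of -0.76 (limma adjusted p = 0.153). The values of 6 members lay apart, all lower in the tumours (*Hk2*, *Pfkl*, *Pfkp*, *Aldoa*, *Pgk1* and *Pkm*), where those of 57.1% of all genes lay apart. *Hk1* (15.6 and 30.0 against 32.4 and 13.9 CPM) and *Pfkm* (63.3 and 30.2 against 30.1 and 59.8 CPM) had log2 fold changes of -0.02 and -0.01 that changed sign with the settings. Paired by the mouse numbers of the titles, *Hk2* (limma adjusted p = 0.0104) and *Pfkp* (limma adjusted p = 0.0407) passed as lower in the tumours, and paired by the numbers of the descriptions, 0 members did. Against all 6 lines, *Hk2* (log2 fold change -1.61, limma adjusted p = 0.0072), *Pfkl* and *Pkm* were lower in the tumours. Myeloid markers, at 30.9 and 41.5 CPM in sum in the tumours and 2.07 to 13.1 CPM in the lines, moved with this comparison, and their part was not tested. B cell markers summed to 9272 and 9398 CPM in the tumours and to at most 2922 CPM in a line.

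The isozymes of 1 step can be set against each other within a library. The share of each hexokinase gene was taken from CPM per kb of exon over *Hk1*, *Hk2*, *Hk3* and *Hkdc1*. *Hk1* was the main hexokinase RNA in MEFs, with 51.7% to 83.9% of the sum, and in preB-ALL, with 73.0% and 89.0%. *Hk2* was the main one in most lymphoma lines, with 40.4% in line 16, 54.3% in line 17, 74.8% in line 14, 85.4% in line 15, 96.1% in line 19 and 99.2% in line 18, and it held the larger share in all of them other than line 16. The tumours, with 68.1% and 47.4% *Hk2*, lay within the range of the lines. *Hk3* reached 5.35% in WT MEF 2 and at most 0.999% in any other library, and *Hkdc1* at most 0.251%.

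The ratio of *Hk2* to *Hk1*, which needs no length, was compared with exact two-sided permutation tests in a family of 12 tests over 3 ratios and 4 comparisons. Its log2 was 2.79 ± 2.83 (SD, n = 6) in the lines and -1.09 ± 0.11 (SD, n = 4) in the sgBcl-2 MEFs, a difference of 3.88 (exact p = 0.0238, adjusted p = 0.0952), with no overlap. The 4 sgBcl-2 libraries come from 2 MEF lines, and with the libraries summed per line the exact p was 0.107. Against preB-ALL the difference was 4.82, without overlap (exact p = 0.0714, adjusted p = 0.122). In the IgM-negative lines the log2 ratio was 7.20 (line 18) and 4.85 (line 19) and in the IgM-positive lines -0.35 (line 16), 0.46 (line 17), 1.78 (line 14) and 2.78 (line 15), a difference of 4.86. With 2 libraries against 4 the exact test cannot go below p = 0.0667, which this difference reached (adjusted p = 0.122). With sgBcl-2 the log2 ratio rose from -2.18 and -2.15 in sgNT MEFs to between -1.24 and -1.01, a difference of 1.08 with no overlap and again the smallest p the design allows (exact p = 0.0667). In the dCas9a-SAM MEFs without an sgRNA it was -0.55 and -0.70. In WT MEF 1 it was -1.39 and in WT MEF 2 -0.06, which lay above line 16. With 1 library left out, the *Hk2* to *Hk1* difference was 2.99 (without line 18) to 4.50 (without line 16) against the sgBcl-2 MEFs, 3.94 (without line 18) to 5.62 (without CreER-LSL-Erg) against preB-ALL and 3.68 (without line 18) to 6.03 (without line 19) between the IgM groups. None of the 12 tests passed at an adjusted p under 0.05.

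**Figure D4:**
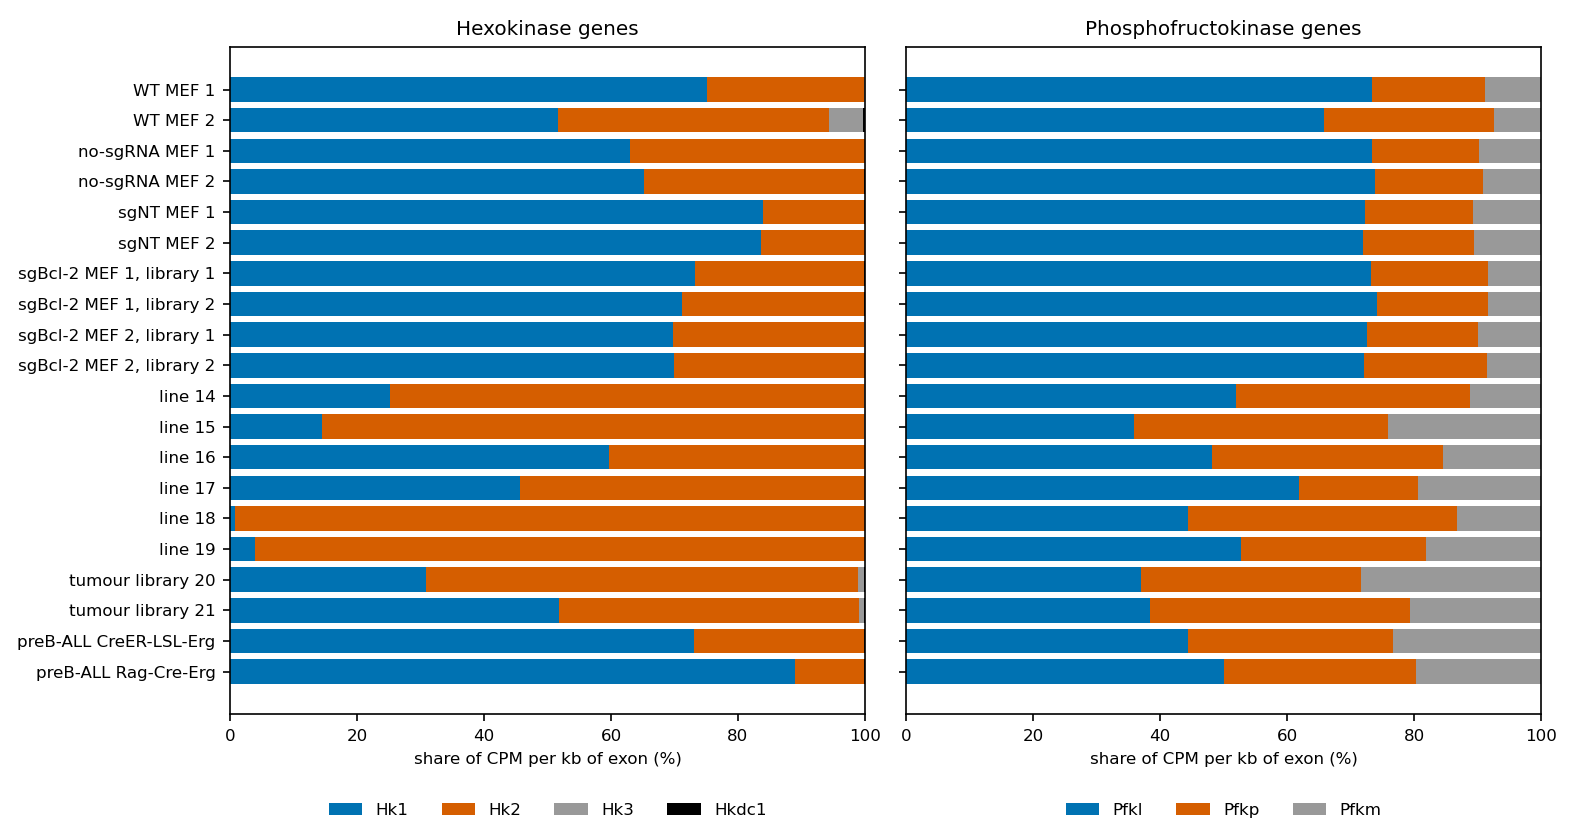
Share (%) of each gene in the summed CPM per kb of exon of 4 hexokinase genes (left) and of 3 phosphofructokinase genes (right), 1 bar per library. *Hk2* runs from 10.8% in a preB-ALL library to 99.2% in line 18, and *Pfkl* from 35.8% in line 15 to 74.1% in a sgBcl-2 MEF library.

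Among the phosphofructokinases, the share of *Pfkl* was higher in every MEF library than in any line, tumour or preB-ALL library. *Pfkl* took 65.8% to 74.1% of the summed CPM per kb in the 10 MEF libraries, 35.8% to 61.9% in the lines, 36.9% and 38.4% in the tumours and 44.3% and 50.1% in preB-ALL. *Pfkp* took 16.9% to 26.8% in MEFs, 18.8% to 42.4% in the lines and 34.7% and 41.1% in the tumours, and *Pfkm* 7.46% to 10.8% in MEFs and 11.3% to 24.0% in the lines. The log2 ratio of *Pfkp* to *Pfkl* was 1.44 higher in the lines than in the sgBcl-2 MEFs (exact p = 0.00952, adjusted p = 0.0571) and that of *Pfkm* to *Pfkl* 1.50 higher (exact p = 0.00476, the smallest possible, adjusted p = 0.0571). Neither ratio overlapped between these groups. Line 17, with a log2 *Pfkp* to *Pfkl* ratio of -1.52, came closest to the sgBcl-2 MEFs, which ranged from -1.88 to -1.68. WT MEF 2, at -1.09, lay above line 17, so over all MEFs this ratio overlapped the lines. Against preB-ALL the differences were 0.03 and -0.43 (exact p = 0.964 and 0.393), with overlap in both. With sgBcl-2 the *Pfkp* to *Pfkl* ratio differed from sgNT by 0.06 (exact p = 0.533) and that of *Pfkm* to *Pfkl* by -0.30 (exact p = 0.0667).

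The retrogene *Aldoart1*, a close copy of *Aldoa*, reached at most 3.91% of the CPM of *Aldoa*, and *Pgk2*, the testis copy of *Pgk1*, is listed at 0 throughout. Reads shared between such copies could be split by the counting. Counts per gene do not separate the PKM1 and PKM2 transcripts of *Pkm*, nor, since the library kit does not mark strand, reads of a gene from those of an antisense partner.

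The mean standardised level of the 10 genes gave a profile over the 20 libraries. *Tpi1* and *Pkm* followed it most closely (Pearson's r = 0.986 each), *Hk1* (0.456) and *Pfkm* (0.66) least, although each gene is itself part of the profile, which raises its r. Outside the 10 genes, *Ero1a*, which oxidises disulfides in the endoplasmic reticulum, was most alike of 16483 genes (r = 0.960), followed by *Tbkbp1* (0.94), *Vdac1*, a channel of the outer mitochondrial membrane (0.919), *Rybp* (0.919) and *Ldha*, the lactate dehydrogenase subunit that follows *Pkm* in fermenting cells (0.918). The libraries share cell type and batch, so these values describe the order of the groups as much as any variation within them.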

How the data were processed

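The deposited table holds CPM values for 25869 genes by Entrez ID in 20 libraries. According to the study's methods, the authors aligned reads with Rsubread to GRCm38 and, for their own tests, filtered the counts and used voom. By its values, the deposited table holds unfiltered CPM relative to each library's total, with neither log nor factor. Every value came out as a whole number of reads (100% within 0.01 reads), so depth was read from the table, and reads were recovered for the count tests. Symbols came from the RefSeq gene table, with 25242 IDs matched, and exon lengths, the union of the exons of protein-coding transcripts, from GENCODE M21. Coordinates are of GRCm38.p6.

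Each comparison was fitted over all genes that passed filterByExpr, with limma 3.58.1 (trend) on log2(CPM + 0.1) after TMM scaling in edgeR 4.0.16, under R 4.3.3, and p-values were adjusted by Benjamini-Hochberg over all genes tested, with a threshold of 0.05. Log2 fold changes lie on this scale, and CPM are printed without a factor. A gene was called where it passed that threshold. Isozyme ratios were compared with exact two-sided permutation tests, adjusted over 12 tests. The fit was tested on simulated data with each comparison's own spread. It called most planted changes in the comparisons of sgNT with no sgRNA and with sgBcl-2. It called none of the 2-fold changes between the lines and preB-ALL, the IgM groups or the tumours and their lines. Of the 4-fold changes in these 3 comparisons it called 37.6%, 53.3% and 39.8%. Between the lines and the sgBcl-2 MEFs it called 31.1% of the 2-fold and 74.7% of the 4-fold changes. Between sgNT and WT it called none of either size. A member that missed the threshold in these comparisons may thus still differ. Alternatives were edgeR's quasi-likelihood test and DESeq2 1.42.0 on the recovered reads, limma-voom, other scalings, filters and pseudocounts, a replicate block, other sets of libraries, and leaving out each library. MEF line numbers in the titles pair the dCas9a-SAM MEF libraries, whereas the WT MEFs share only the numbers 1 and 2 with them. Deviations from the group means, across 15158 genes, correlated at 0.325 between sgNT and sgBcl-2, but at -0.047 and -0.131 between no sgRNA and sgNT or sgBcl-2, and at 0.050, 0.055 and 0.184 between WT and no sgRNA, sgNT or sgBcl-2. The pairing thus rests on the titles, and the deviations of the no-sgRNA libraries do not show it. Gene pathway lists and markers were written by hand. In the comparisons of the lymphoma lines, genes outside the members were named from the called ones with the 3 smallest adjusted p in each direction and list. Not all of these were named. The members and lists were chosen with earlier results of these data known. Some comparisons share libraries (sgNT in 3, sgBcl-2 MEFs in 2, the lymphoma lines in 3), so their values are not independent. Lines 14 and 15 were also set against the tumours. No value column was left unused. Some genes of the lists are not reported here by name.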

Additional observations from a re-analysis of the deposited data

How the results depend on the processing

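Of the 70 member results of the 7 comparisons, 22 were called, and none of these changed direction under any alternative run. In 8 of those not called the direction changed in at least 1 alternative. The number of members called moved by over 1.5 times as follows. Between the IgM-negative and IgM-positive lines it was 1 with DESeq2 and 1 in the fit over all 20 libraries (*Hk1* in both). Between the lymphoma lines and preB-ALL it was 1 once the tumours stood in for their lines, 9 over all 20 libraries (*Hk1*, lower in the lines, among them) and 2 to 7 with 1 library left out, the lowest counts being those without a preB-ALL library, where the other is assumed to vary like the lines. Between sgBcl-2 and sgNT MEFs it was 1 without a scaling factor, 0 over all 20 libraries, 1 with the sgBcl-2 libraries summed per MEF line and 1 to 2 with 1 library left out. With the replicate block by MEF line it was 3, and 4 with the libraries summed and the block together, an alternative chosen after seeing the data. Between sgNT and WT MEFs it was 0 to 3 with 1 library left out, and between sgNT and no sgRNA 0 over all 20 libraries, with the *Tpi1* call lost in 5 and the *Pgk1* call in 2 of 13 alternatives. In these 2 comparisons the replicate block left the counts at 0 and 7, and between sgNT and WT it joins libraries that share a number only. Between the tumours and their lines it was 2 with DESeq2, 1 over all 20 libraries, 1 against the 4 IgM-positive lines, 3 against all 6 lines, 2 with a replicate block by the mouse numbers of the titles and 0 with those of the descriptions.

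With 1 CPM added to both genes, the 12 isozyme differences kept their direction, and the 6 tests able to reach an unadjusted 0.05 kept their side of it. With the sgBcl-2 libraries summed per MEF line, the *Hk2* to *Hk1* difference between lines and MEFs stayed at 3.88 (exact p = 0.107). With 1 library left out, the differences of log2 ratios of the phosphofructokinases ranged from -0.12 to 0.26 (*Pfkp* to *Pfkl*) and -0.63 to -0.22 (*Pfkm* to *Pfkl*, under 0.05 without line 15) against preB-ALL, and from -0.24 to 0.55 and -0.34 to 0.20 between the IgM groups.

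Among log2 fold changes that reversed, none of them called, in the tumours *Hk1* was 0.028 without a scaling factor, 0.0051 over all 20 libraries and 0.43 against all 6 lines, and *Pfkm* was 0.016 with edgeR, 0.017 with DESeq2, 0.043 without a scaling factor, 0.0012 without a filter and 0.019 over all 20 libraries. *Pgk1* was -0.0039 between sgBcl-2 and sgNT without a scaling factor. Leaving out 1 library gave -0.68 to 0.62 for *Hk1*, -0.49 to 0.51 for *Pfkm* and -0.61 to 0.18 for *Gpi1* in the tumours, -0.036 to 0.21 for *Pgk1* with sgBcl-2, and, between sgNT and WT, -0.76 to 0.20 for *Aldoa*, -0.42 to 0.22 for *Gpi1*, -0.34 to 0.22 for *Pfkp* and -0.034 to 0.27 for *Pkm*. The cause of these shifts was not tested. With 2 libraries in most groups, small differences cannot be told from the spread. *Hk1* in line 18 rests on 23 reads and *Pgk1* in preB-ALL on 58 and 92 reads, and all other member values on more.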
